A study of Mus musculus with 12 samples.

Results

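Vegfa and 9 genes of the hypoxia response (Egln1, Egln3, Bnip3, Ndrg1, Car9, Adm, Ddit4, P4ha1 and Hif1a) were followed in mouse adherent neural stem (ANS) cells as they left proliferation. The 10 genes were found by symbol among the 22609 genes counted, and all 10 were also found in the deposited FPKM table. The set was chosen by a measured value, the difference of Vegfa between the T0 and T1 libraries, and the other members were added as known partners or targets of the same pathway. Levels of Vegfa at T0 and T1, and of every member in T1 vs. T0, are therefore described here without a test.

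The culture is a monolayer of neural progenitors taken from normal mouse brain at E14.5, with no allele or transgene named in the labels. The RNAseq data hold 3 libraries of proliferating cells in growth medium with FGF2 at 20 ng/ml and EGF at 20 ng/ml (T0). The T1 libraries, also 3, were made 2 days after the change to medium D1, with FGF at 10 ng/ml, EGF at 2 ng/ml and the B27 supplement. Medium B holds FGF2 at 10 ng/ml, BDNF at 20 ng/ml and B27 on laminin, and cells were taken 2 days (T2, 4 libraries) and 10 days (T3, 2 libraries, numbered 1 and 4) after the change to it. For the steps in medium D1 and in medium B the growth protocol gives 3 days where the sample titles give 2, and the titles are followed here. Cells were dissociated and plated again before each of these media, so time, medium, plating and density cannot be told apart. The oxygen level of the cultures is not given in the sources used here. The methods call the samples biological replicates, and no label ties them to separate derivations of the cells, so p-values measure the spread between these libraries.

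Cells sense oxygen through the prolyl hydroxylases encoded by the Egln genes, which mark the HIF alpha subunit for ubiquitination by the VHL complex and for degradation. When oxygen is low the alpha subunit (Hif1a) escapes, pairs with ARNT and binds a short DNA motif, RCGTG, near genes for glycolysis, pH control, collagen modification, mitophagy and angiogenesis. Regulation of Hif1a is largely at the level of the protein, which RNAseq does not measure. In the brain VEGFA from neural progenitors is known for guiding vessels into the developing wall. Several of these genes also respond to growth factors, to nutrient supply or to the integrated stress response.

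The core of that motif was looked for around the start of each member, and the windows that hold it are shown because the question was whether these genes move together. ACGTG and GCGTG, the forms of RCGTG, were searched on both strands from 1000 bases before to 100 bases after the 5′ end of the GENCODE vM1 gene on NCBIM37 (mm9). All 10 members held ACGTG, with 15 matches in all, and 9 held GCGTG, with 28 matches. ACGTG stood in 48.2% of 22380 promoters of the same length, GCGTG in 60.4% and either form in 75.8%. A match of letters is a description and not a binding site. The windows below are 25 bases, 5′ to 3′ on the strand named, with the match in capitals.
Vegfa, chr17:46170235-46170259, minus strand: cacagtgcatACGTGggtttccaca
Egln1, chr8:127473208-127473232, minus strand: gccgtggtgtACGTGcagcgcgcgc
Egln3, chr12:55305076-55305100, minus strand: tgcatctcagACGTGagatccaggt
Bnip3, chr7:146101523-146101547, plus strand: aggtgggcagACGTGggcgggctcc
Ndrg1, chr15:66801467-66801491, plus strand: tgtgcagcgaACGTGtgcccaccga
Ddit4, chr10:59415187-59415211, minus strand: tgatgaggggACGTGggagccgatg
P4ha1, chr10:58786018-58786042, minus strand: agccctcgctACGTGcgctctgtca

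The window of Vegfa is centred 921 bases upstream of the gene's 5′ end. Of the ACGTG matches, that of P4ha1 lies closest to the 5′ end, 14 bases upstream, and that of Egln1 lies 66 bases upstream. A GCGTG of Ndrg1 lies closer still, 10 bases upstream. Bnip3 held 4 matches of ACGTG, 2 of which are the same CACGTG palindrome read on opposite strands, and its window shown lies 333 bases upstream. The windows of Egln3, Ndrg1 and Ddit4 lie 241, 277 and 681 bases upstream. Ndrg1 and Ddit4 each held another ACGTG, 655 and 185 bases upstream, that is not shown. For Hif1a the 5′ end in GENCODE vM1 lies 6492 bases before the start in RefSeq (GRCm38.p6), so its match does not sit at the RefSeq promoter and is not shown. The ACGTG match of Adm lies 781 bases upstream of the 5′ end. The deposited FPKM table places the 5′ ends of Ndrg1 and Car9 further upstream than GENCODE vM1 (at 66844601 on chromosome 15 for Ndrg1), so the window of Ndrg1 is tied to the GENCODE start only and no distance is given for Car9.

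Libraries had 8910724 to 16631614 counts on genes, and 3 counts were worth 0.183 to 0.323 CPM. T0 replicate 3 stands apart from the other T0 libraries, with a chi-square per gene of 101 and 105 against them, while T0 replicates 1 and 2 had 3.28 between each other. T1 replicate 3 differed from the other T1 libraries by 14.3 and 23.6, against 5.34 between T1 replicates 1 and 2. No label gives another culture or batch for these libraries, and a different state of the culture and a mislabelled library cannot be told apart from these files. Member results that rest on T0 replicate 3 are given with and without it. The 6 neural progenitor markers (Nes, Sox2, Pax6, Fabp7, Slc1a3, Vim) summed to 5856 to 8096 CPM in all 12 libraries. Single markers were less even than this sum in T0 replicate 3. Fabp7 (2257 CPM there against 751 and 811 in T0 replicates 1 and 2) and Nes (1814 against 850 and 968) were higher. Sox2 (186 CPM against 430 and 431) and Slc1a3 (693 against 1332 and 1383) were lower. The 12 neuronal and GABAergic markers summed to 897 to 973 CPM at T0 and 1708 to 2761 CPM later. Most of the neuronal sum is Mtap2 (879 to 921 CPM at T0 and 1309 to 2169 CPM later). Dcx went from 1.76 to 8.18 CPM at T0 to 201 to 550 CPM later, while Gad1 had 1.2 to 4.05 and 23.9 to 55.8 CPM. Gad2, Slc32a1, Dlx5 and Dlx6, which define GABAergic neurons, had at most 0.108 CPM in any library. The 8 endothelial markers summed to 1.22 to 2.48 CPM and the 6 microglia markers to 0.0747 to 0.573 CPM. Cdh5 had at most 0.123 CPM and Erg at most 0.123 CPM, so the defining genes of endothelium are at or near 0 in every library. The 6 pericyte and fibroblast markers summed to 0.564 to 3.34 CPM and the 6 oligodendrocyte markers to 985 to 1708 CPM, of which Olig2, also expressed in neural progenitors, made up 944 to 1632 CPM. Sox10, Mbp and Mog each had at most 3.38 CPM.

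Vegfa, which codes for the main angiogenic growth factor of the family, was high in a pair of proliferating libraries and lower in the other 10. It had 269 and 255 CPM in T0 replicates 1 and 2 and 49.8 CPM in T0 replicate 3. At T1 the values were 14.3, 18.3 and 86.4 CPM in replicates 1, 2 and 3. T0 replicate 3 is thus below T1 replicate 3, and the groups overlap.

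By means, Vegfa was at 191 ± 123 CPM at T0 (SD, n = 3) and at 39.7 ± 40.5 CPM at T1 (SD, n = 3), a ratio of 4.82. Between replicates 1 and 2 alone T0 was 16.1-fold above T1, while T0 replicate 3 was at 0.576 of T1 replicate 3. Leaving out each library in turn, the log2 ratio of T1 over T0 went from -3.55 without T1 replicate 3 to -1.87 without T1 replicate 1. In bulk RNA, fewer cells that express Vegfa and less Vegfa RNA per cell cannot be told apart.

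In medium B the Vegfa libraries lay close together. T2 had 32, 32.6, 37.1 and 33.1 CPM in replicates 1 to 4 (33.7 ± 2.32, SD, n = 4), and T3 had 35.3 and 27.7 CPM in replicates 1 and 4 (31.5 ± 5.37, SD, n = 2). All 6 lie below T0 replicate 3 and between the T1 values of replicates 2 and 3. T3 vs. T2, the comparison that did not choose the gene, gave a log2 fold change of -0.10 ± 0.14 (SE) with an adjusted p of 0.78 by edgeR's quasi-likelihood test, corrected by Benjamini-Hochberg over 12599 genes.

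**Figure D1:**
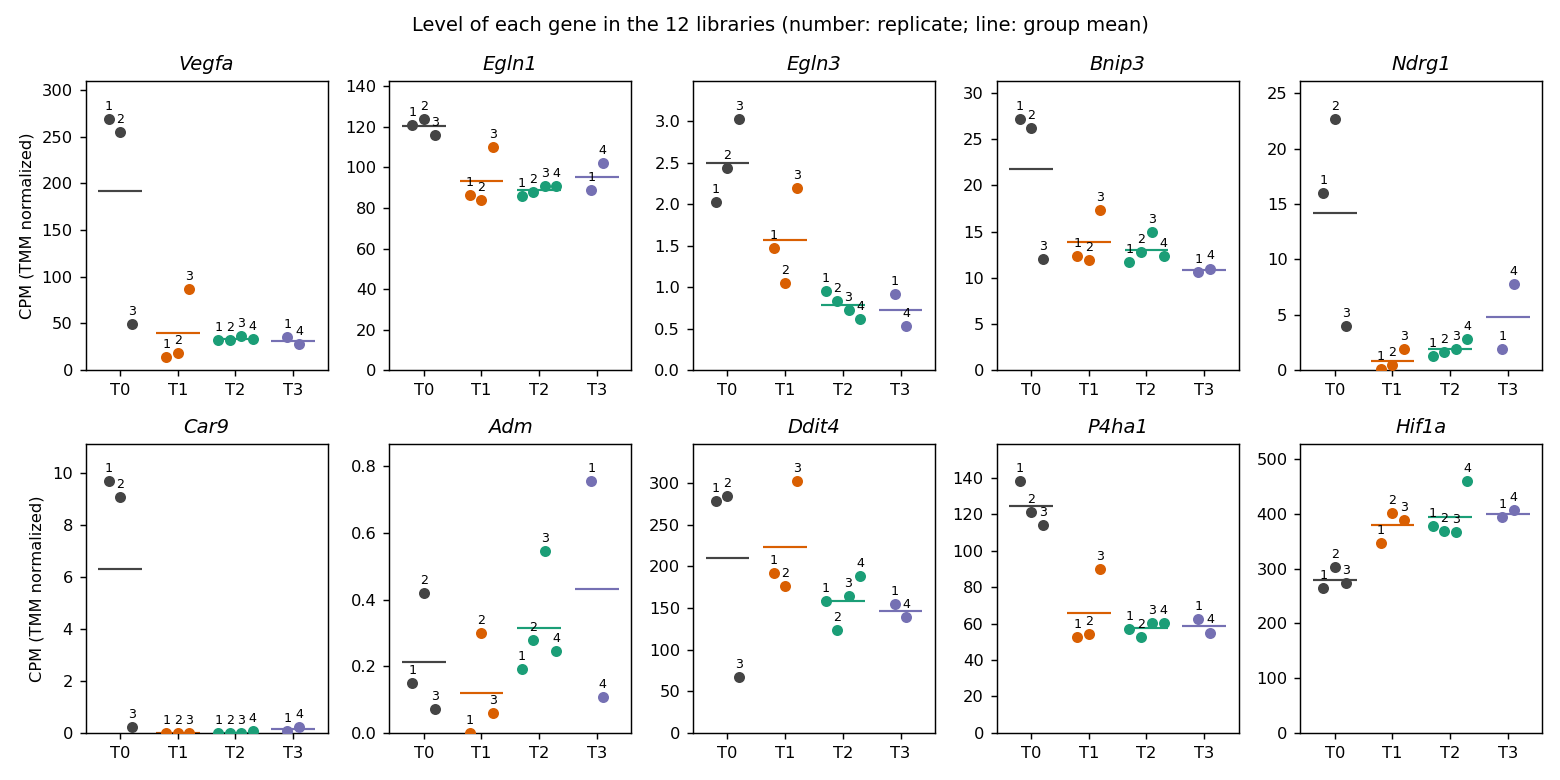
CPM (counts scaled to library size with TMM factors, linear axis from 0) of the 10 genes in each library at T0, T1, T2 and T3, with the replicate number above each point and a line at the group mean. Vegfa, Bnip3, Ndrg1, Car9 and Ddit4 had T0 replicate 3 far below T0 replicates 1 and 2, whereas Egln1, Egln3, P4ha1 and Hif1a did not.

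Of the oxygen sensors, Egln1 (PHD2, the main HIF prolyl hydroxylase) was expressed evenly. It had 121, 124 and 116 CPM at T0, 86.3, 83.7 and 110 CPM at T1, 85.8, 88.1, 90.6 and 90.8 CPM at T2, and 89 and 102 CPM at T3. The T0 libraries lay above all later ones, by 1.29-fold in the means of T0 over T1. T0 replicate 3 was at 0.946 of the mean of T0 replicates 1 and 2, so it did not show the split of the T0 libraries seen for Vegfa.

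Egln3 (PHD3, a hydroxylase whose gene is itself induced by HIF) was low, with 5 to 43 counts per library. It had 2.03, 2.44 and 3.03 CPM at T0, 1.47, 1.05 and 2.2 CPM at T1, 0.956, 0.833, 0.728 and 0.614 CPM at T2, and 0.921 and 0.538 CPM at T3. T0 replicate 3 had the highest of its T0 values, and T1 overlapped T0 through T1 replicate 3.

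Hif1a, the oxygen-regulated subunit of the transcription factor, went the other way. It had 264, 303 and 273 CPM at T0, 347, 401 and 388 CPM at T1, 378, 369, 367 and 459 CPM at T2, and 394 and 407 CPM at T3. Every later library was above every T0 library, and the T1 mean was 1.35-fold above the T0 mean.

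Among the targets, Car9 (a membrane carbonic anhydrase that buffers pH and is used as a hypoxia marker) showed the sharpest split. T0 replicates 1 and 2 had 129 and 130 counts (9.68 and 9.07 CPM), and T0 replicate 3 had 3 counts (0.212 CPM). The 3 T1 libraries had 0 counts, the T2 libraries had 0, 0, 0 and 1 count, and the T3 libraries 1 and 2 counts. T1 was at least 28.5-fold below the T0 mean of 6.32 CPM, taking 3 counts per library as the floor. This bound rests on T0 replicates 1 and 2.

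Ndrg1 (a stress-responsive gene for a protein of the cytoplasm that HIF induces) had 16, 22.7 and 3.95 CPM at T0 and 0.0862, 0.448 and 1.95 CPM at T1. The T1 libraries held 1, 6 and 32 counts. T2 had 1.24, 1.67, 1.91 and 2.83 CPM, and T3 had 1.93 CPM in replicate 1 and 7.75 CPM in replicate 4. T0 replicate 3 was low for T0 and still above every T1 and T2 library, and below T3 replicate 4.

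Bnip3, which codes for a mitophagy receptor of the outer mitochondrial membrane, had 27.2, 26.2 and 12 CPM at T0. It had 12.3, 11.9 and 17.3 CPM at T1, 11.7, 12.8, 15 and 12.3 CPM at T2, and 10.6 and 11 CPM at T3. With T0 replicate 3 the T0 range takes in most of the T1 and T2 values, and without it the T0 libraries are above all others.

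Ddit4 (REDD1, an inhibitor of mTORC1 that also responds to ATF4) had 278, 285 and 67.2 CPM at T0 and 192, 177 and 302 CPM at T1. T2 had 158, 123, 164 and 189 CPM, and T3 had 155 and 139 CPM. T0 replicate 3 was the lowest of all 12 libraries and T1 replicate 3 the highest. The log2 ratio of T1 over T0 by means was 0.09, and it was -0.33 without T0 replicate 3 and -0.19 without T1 replicate 3, so its sign rests on these libraries.

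P4ha1, which codes for a catalytic subunit of collagen prolyl 4-hydroxylase, had every T0 library above every later one. It had 138, 121 and 114 CPM at T0, 52.7, 54.1 and 89.8 CPM at T1, 57, 52.5, 60.1 and 60.1 CPM at T2, and 62.4 and 55.1 CPM at T3. T0 was 1.9-fold above T1 by means, and T0 replicate 3 was at 0.877 of the other T0 libraries. Adm, the gene of the vasodilator peptide adrenomedullin, had 0 to 9 counts in any library and did not pass the filter on low counts in any comparison.

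By means, 8 of the 10 members were lower at T1 than at T0 and 2, Ddit4 and Hif1a, were higher. All T1 libraries lay below all T0 libraries for 4 members (Egln1, Ndrg1, Car9 and P4ha1). The same held for 28% of the 12364 genes that passed the filter. Car9 and Adm did not pass it, and of the 8 members that did, Egln1, Ndrg1 and P4ha1 met this. The members' count is a description, since this contrast chose the set. Among replicates 1 and 2 only, the ratio of T0 over T1 was 72.3 for Ndrg1, with 7 counts in those T1 libraries, 16.1 for Vegfa, 2.43 for P4ha1, 2.21 for Bnip3, 1.78 for Egln3, 1.53 for Ddit4, 1.44 for Egln1 and 0.758 for Hif1a. For Car9 it was at least 38.8, with 3 counts per T1 library as the floor. The ratio of Vegfa was thus exceeded by those of Ndrg1 and Car9, and the next below it was that of P4ha1.

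**Figure D2:**
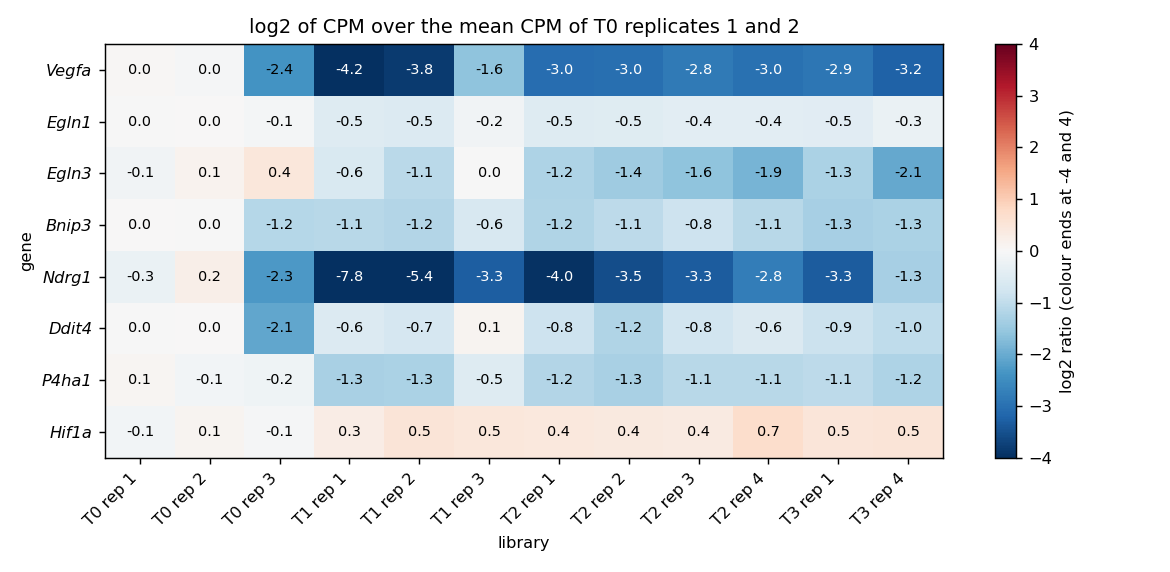
log2 of each library's CPM over the mean CPM of T0 replicates 1 and 2, for the 8 members other than Car9 and Adm (rows) in the 12 libraries (columns). Vegfa, Egln1, Bnip3, Ndrg1 and P4ha1 were lower in every other library. T0 replicate 3 was low for Vegfa, Bnip3, Ndrg1 and Ddit4, and Hif1a was higher in all libraries after T0.

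The T0 libraries differed among themselves for part of the members. Counting genes at least 2-fold lower in T0 replicate 3 than in both other T0 libraries, 3 of the 7 members other than Vegfa and Car9 that passed the filter over all libraries were included (Bnip3, Ndrg1 and Ddit4), and the background was 13.1% of 12952 genes. Vegfa and Car9 also met this criterion, but the T0 values of Vegfa chose the set and Car9 passed the filter through T0 replicates 1 and 2 alone. These counts are a description, since the members were chosen from the same T0 libraries. No member was at least 2-fold higher there. Relative to the mean of T0 replicates 1 and 2, T0 replicate 3 was at 0.19 for Vegfa, 0.204 for Ndrg1, 0.238 for Ddit4 and 0.449 for Bnip3. T1 replicate 3 was 5.3-fold above the mean of T1 replicates 1 and 2 for Vegfa, 7.3-fold for Ndrg1, 1.75-fold for Egln3, 1.68-fold for P4ha1, 1.63-fold for Ddit4 and 1.43-fold for Bnip3, and it was at 1.04 for Hif1a. Both libraries numbered 3 therefore gave other values than their group, in opposite directions for Vegfa.

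Sums of other gene lists also differed in T0 replicate 3. The 5 astrocyte markers summed to 74.5 CPM there and to 659 and 685 CPM in T0 replicates 1 and 2, with Gfap at 0.494 CPM against 147 and 150 CPM. At T1 to T3 the astrocyte sum was 471 to 907 CPM. The 8 genes of the integrated stress response summed to 414 CPM in T0 replicate 3 and 240 CPM in both other T0 libraries. Atf4 (234 CPM against 116 and 110 CPM) and Asns (110 CPM against 50.4 and 52.5 CPM) made up most of the difference. Ddit3 (6.35 CPM against 10.1 and 11.6 CPM) and Sesn2 (32.9 CPM against 38 and 40.8 CPM) were lower there, so the list did not move as a whole. Reads on no gene were 13.3% in T0 replicate 3 and 17.6% to 24.1% in the other libraries. The part of these differences in the levels of Vegfa and the other members was not tested.

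At T2, 2 days into medium B, 5 of the 7 members that could be tested had changed from T0. Egln1, Egln3, Ndrg1 and P4ha1 fell and Hif1a rose, against a background of 21.8% of 12607 genes called lower and 21.4% called higher. Car9 and Adm did not pass the filter, and Vegfa was not tested as its T0 values chose the set. The T0 libraries are the same as in the comparison with T1, so the results at T2 and T3 are not independent of that description.

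The log2 fold change of Ndrg1 at T2 was -2.84 ± 0.55 (SE, adjusted p = 0.0039 by edgeR), the largest of those tested. Egln3 fell by 1.67 ± 0.29 (adjusted p = 0.0025, edgeR), from 2.5 ± 0.506 CPM (SD, n = 3) to 0.783 ± 0.146 CPM (SD, n = 4). P4ha1 fell by 1.10 ± 0.11 on the log2 scale (adjusted p = 0.00016, edgeR), from 125 ± 12.5 to 57.4 ± 3.63 CPM. For P4ha1 this is a 2.17-fold difference of the means, and the lowest T0 library (114 CPM) lay above the highest T2 library (60.1 CPM).

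Egln1 fell by 0.42 ± 0.09 on the log2 scale (adjusted p = 0.0051, edgeR) and Hif1a rose by 0.51 ± 0.12 (adjusted p = 0.01, edgeR), from 280 ± 20.4 to 393 ± 43.9 CPM. Bnip3 (-0.74 ± 0.27, adjusted p = 0.056 by edgeR) and Ddit4 (-0.39 ± 0.42, adjusted p = 0.48 by edgeR) did not pass the threshold. Without T0 replicate 3 these 5 calls held and 2 more members were called, Bnip3 at -1.03 (adjusted p = 9.8e-05 by edgeR) and Ddit4 at -0.81 (adjusted p = 0.00087 by edgeR). Car9 then passed the filter through its high T0 libraries alone, so its call is not counted. The calls of Bnip3 and Ddit4 thus depend on whether T0 replicate 3 is counted.

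At T3 only P4ha1 was called, at -1.07 ± 0.17 (adjusted p = 0.032 by edgeR), against 1.41% of 12721 genes called lower and 3.31% called higher. With 2 libraries at T3 the errors were wider than at T2. The estimates were -1.73 ± 0.47 for Egln3 (adjusted p = 0.087 by edgeR), 0.53 ± 0.15 for Hif1a (adjusted p = 0.096 by edgeR) and -1.55 ± 0.89 for Ndrg1 (adjusted p = 0.32 by edgeR). Egln1 had an adjusted p of 0.23, Bnip3 of 0.18 and Ddit4 of 0.63 by edgeR. Car9 passed the filter here through its T0 libraries alone and is not read. Egln3, with 5 and 11 counts at T3 and 27 to 43 at T0, passed it mainly through T0, which limits its estimate.

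Without T0 replicate 3, 4 of the 7 members other than Vegfa and Car9 were called at T3 (Bnip3, Ddit4, P4ha1 and Hif1a). Without any other single library of this comparison (T0 replicate 1 or 2, T3 replicate 1 or 4) none was called, and the adjusted p of P4ha1 was 0.12 to 0.21 by edgeR.

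**Figure D3:**
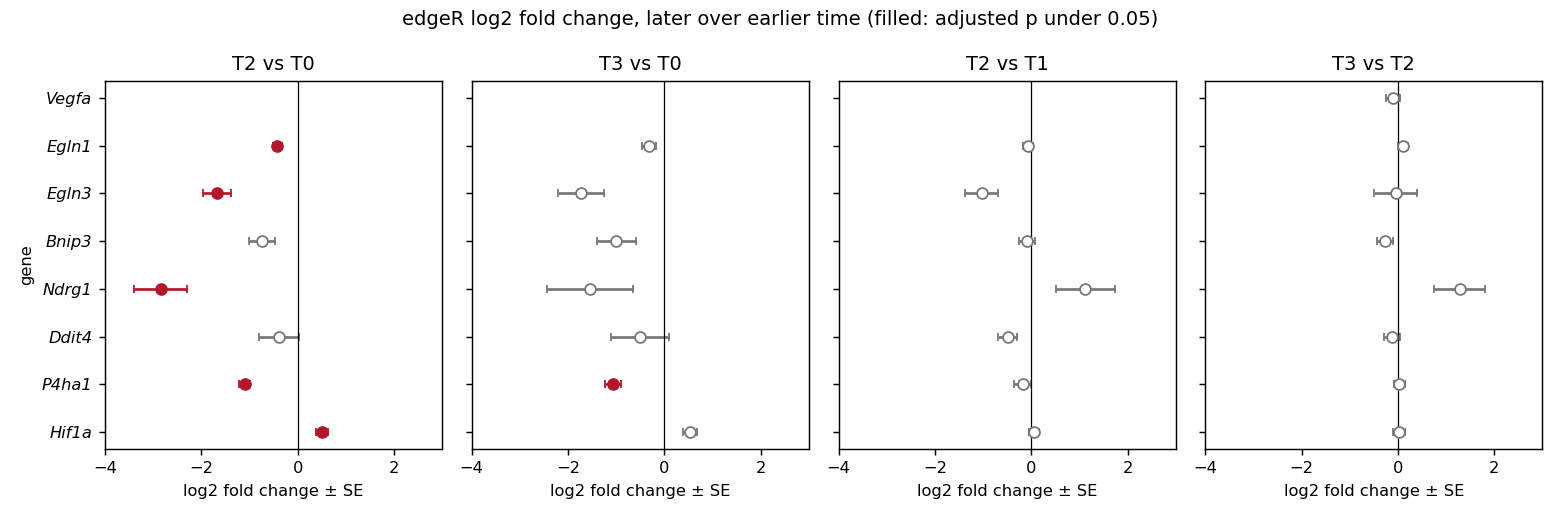
edgeR log2 fold change ± SE of the later over the earlier time for the members that passed the filter, in 4 comparisons, with Vegfa shown only for T3 vs. T2 and Car9 and Adm left out. Filled points passed an adjusted p of 0.05: 5 members at T2 vs. T0, P4ha1 at T3 vs. T0 and none in the steps after T1.

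Between the later times no member passed the test. From T1 to T2, 0 of the 7 members tested were called by edgeR or DESeq2, and 2 had an unadjusted p under 0.05 by edgeR. In the background 0.0565% of 12382 genes were called lower and 0.573% higher. The estimates were -1.03 ± 0.34 for Egln3 (adjusted p = 0.25 by edgeR), -0.49 ± 0.19 for Ddit4 (adjusted p = 0.35 by edgeR) and 1.12 ± 0.61 for Ndrg1 (adjusted p = 0.53 by edgeR). Egln3 held 14 to 36 counts at T1 and 8 to 10 at T2, and Ndrg1 1 to 32 and 13 to 46. Each passed the filter mainly through the group where it was higher, which limits these 2 estimates. Egln1, Bnip3, P4ha1 and Hif1a had log2 fold changes between -0.18 and 0.06.

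From T2 to T3, 0 of 8 members were called by edgeR or DESeq2, 1 had an unadjusted p under 0.05 by edgeR, and the background was 0.691% of 12599 genes lower and 0.5% higher. Ndrg1 had the largest estimate, 1.28 ± 0.53 (adjusted p = 0.26 by edgeR). It rests on T3 replicate 4, since it was 1.98 without T3 replicate 1 (adjusted p = 0.015 by edgeR) and -0.04 without T3 replicate 4. The other 7 estimates lay between -0.27 and 0.10.

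To see how far the rest of the pathway went with these genes, 89 further genes of oxygen sensing, VEGF signalling and hypoxia targets were counted in 7 role groups. At T1 vs. T0, 25 of the 74 tested were lower and 6 higher, with a median log2 fold change of -0.29 beside -0.01 over all genes, and a background of 16.8% lower and 15.1% higher. At T2, 30 of 73 were lower and 12 higher, with a median of -0.37 beside 0.00. At T3, 11 of 74 were lower and 1 higher, with a median of -0.43 beside -0.01. The background was 21.8% lower and 21.4% higher at T2, and 1.41% and 3.31% at T3. The share of higher genes was not above the background at any of these times. The same backgrounds hold for the counts of each role group below.

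The counts of the wider list move with single libraries. At T1 the lower genes were 12 without T1 replicate 1, 13 without T1 replicate 2 and 34 without T0 replicate 3, and the higher genes were 15 without T0 replicate 3, 2 without T0 replicate 2 or T1 replicate 3, and 1 without T1 replicate 1 or 2. At T3 the lower genes were 26 and the higher 2 without T0 replicate 3, and both counts were 0 without T0 replicate 1 or 2 or T3 replicate 1 or 4. At T2 vs. T0 they were 42 lower and 16 higher without T0 replicate 3. DESeq2 called 29 lower and 10 higher at T1, 32 and 12 at T2, and 21 and 1 at T3. The genes of this list named below, by the largest changes from T0 in each role group, gave 40 calls in all, and 40 were also made without T0 replicate 3.

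Genes of glycolysis and glucose uptake held more of the falls than any other role group, with 12 of 22 lower and 1 higher at T1, 14 of 21 lower and 2 higher at T2, and 7 of 21 lower and 0 higher at T3, where DESeq2 and edgeR's unadjusted p under 0.05 gave 0 higher too. Ldha, which makes lactate from pyruvate, went from 806 ± 211 CPM at T0 (SD, n = 3) to 226 ± 93.8 CPM at T1 (SD, n = 3; log2 fold change -1.84 ± 0.32, adjusted p = 0.007 by edgeR) and to 218 ± 26.2 CPM at T2 (n = 4; -1.87 ± 0.18). Its T0 values were 668, 701 and 1049 CPM, so T0 replicate 3 was the highest and not the lowest.

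Slc2a1, the glucose transporter GLUT1, had 78.9, 68.4 and 70.2 CPM at T0, 22.2, 22.6 and 42.4 CPM at T1 and 17.6 to 27.9 CPM at T2 (-1.69 ± 0.16, adjusted p = 0.00015 by edgeR). Hk2, a hexokinase, fell by 2.16 ± 0.20 at T2 (adjusted p = 0.00013, edgeR), from 95.1 ± 18.7 to 21 ± 4.18 CPM. Aldoa and Tpi1 each fell by 1.52 at T1 on the log2 scale, with SE of 0.18 and 0.26. Pdk1, the kinase that restrains pyruvate dehydrogenase, had 138, 143 and 68.8 CPM at T0 and fell at T3 by 1.91 ± 0.36 (adjusted p = 0.046, edgeR), or by 2.17 ± 0.12 without T0 replicate 3 (adjusted p = 0.0066, edgeR).

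Of the 21 glycolytic genes that passed the filter over all libraries, 3 (Slc2a3, Pdk1 and Ppp1r3c) were at least 2-fold lower in T0 replicate 3 than in both other T0 libraries. This share was near the background of 13.1% of 12952 genes. The median log2 ratio of T0 replicate 3 over the mean of T0 replicates 1 and 2 was -0.08 for these 21 genes. Several glycolytic genes have processed pseudogenes, and the deposited files hold reads whose alignment was not unique in an entry of their own, outside the genes. Gapdh had 0.598 to 4.16 CPM. The part of such reads in the levels of this group was not tested, so these levels are uncertain.

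The hypoxia targets that modify collagen and matrix had 2 of 4 lower and 0 higher at T1 and again at T2, with Plod2, a collagen lysyl hydroxylase, at 121 ± 27.9 CPM at T0 and 59.2 ± 17.9 CPM at T1 (-1.03 ± 0.26, adjusted p = 0.024 by edgeR). Plod2 was also the 1 of 5 called at T3 (-1.32 ± 0.26, adjusted p = 0.049 by edgeR). In the group of mitochondria, pH, iron and stress, 6 of 17 were lower and 1 higher at T1, 8 and 2 at T2, and 2 and 0 at T3. Fam162a, a mitochondrial protein of the hypoxic death response, went from 153, 143 and 126 CPM at T0 to 49, 41.5 and 65.7 CPM at T1 (-1.44 ± 0.19, adjusted p = 0.0022 by edgeR). Ero1l, an oxidase of the endoplasmic reticulum, fell by 1.45 ± 0.21 at T2 (adjusted p = 0.00093, edgeR), and Tfrc, the transferrin receptor, fell by 1.45 ± 0.34 (adjusted p = 0.0092, edgeR), or by 0.91 ± 0.19 without T0 replicate 3 (adjusted p = 0.003, edgeR). Ak4, an adenylate kinase, fell at T3 by 1.38 ± 0.21 (adjusted p = 0.03, edgeR).

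Of the secreted factors, 2 of 5 were lower at T1 and at T2 and 0 at T3, with 0 higher at each time. Mif, a cytokine, fell by 1.04 ± 0.19 at T1 (adjusted p = 0.0087, edgeR). Transcription and chromatin targets had 0 of 9 lower and 2 higher at T1, 1 and 3 at T2, and 0 and 1 at T3. Ets1, a transcription factor, rose from 156 ± 7.3 to 461 ± 49.3 CPM at T1 (1.56 ± 0.13, adjusted p = 0.00051 by edgeR), and Kdm4b, a histone demethylase, rose by 0.81 ± 0.19 (adjusted p = 0.018, edgeR). Bhlhe40, a repressor, was the 1 that fell at T2 (-0.53 ± 0.19, adjusted p = 0.049 by edgeR).

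**Figure D4:**
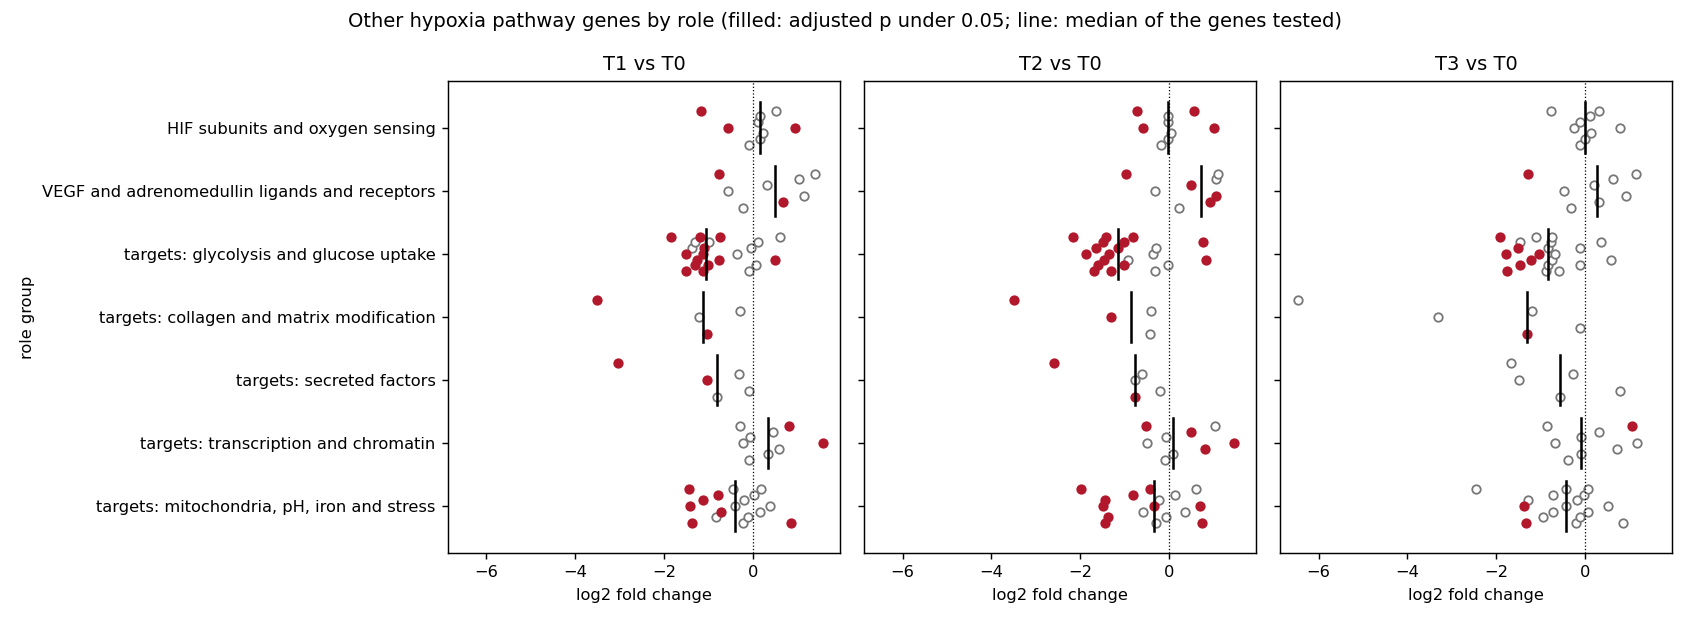
log2 fold change against T0 of the tested genes among 89 further hypoxia pathway genes, by role group, at T1, T2 and T3, with filled points past an adjusted p of 0.05 and a line at each group's median. The glycolysis group has medians of -1.06, -1.16 and -0.84 in the 3 panels, while that of the HIF subunits is 0.16, -0.03 and 0.00.

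The HIF machinery had 2 of 9 lower and 1 higher at T1, 2 and 2 at T2, and 0 and 0 at T3, shares near the background of 16.8% and 15.1% at T1 and 21.8% and 21.4% at T2. At T3, 1 was lower and 0 higher at an unadjusted p under 0.05 by edgeR, and DESeq2 called 0 and 0. Epas1, the gene of HIF-2 alpha, fell from 7.48 ± 0.854 to 3.33 ± 1.14 CPM at T1 (-1.18 ± 0.30, adjusted p = 0.025 by edgeR), and at T2, where Hif1a rose, its log2 fold change was -0.72 ± 0.23 (adjusted p = 0.036 by edgeR). Cited2, which competes with HIF for its coactivators, fell by 0.56 ± 0.15 (adjusted p = 0.03, edgeR). Arnt2, the neural partner of the alpha subunits, had 194, 192 and 87.8 CPM at T0 and rose at T1 by 0.93 ± 0.29 (adjusted p = 0.047, edgeR), or by 0.65 ± 0.08 without T0 replicate 3 (adjusted p = 0.00032, edgeR).

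Ligands and receptors of VEGF and adrenomedullin had 1 of 8 lower and 1 higher at T1, 1 and 3 at T2, and 1 and 0 at T3. The background was 16.8% lower and 15.1% higher at T1, 21.8% and 21.4% at T2, and 1.41% and 3.31% at T3. Neither share at T1 was above it, nor was the share of lower genes at T2. Pgf, a ligand of the VEGF family, rose at T2 by 0.92 ± 0.29 (adjusted p = 0.034, edgeR). Calcrl, the adrenomedullin and CGRP receptor, was at 312 ± 45.3 CPM at T0, 185 ± 51.2 CPM at T1, 157 ± 21.4 CPM at T2 and 127 ± 18.7 CPM at T3, and fell in all 3 comparisons. Its partner Ramp2 rose at T1 (0.67 ± 0.15, adjusted p = 0.017 by edgeR) and at T2 (1.06 ± 0.17, adjusted p = 0.0018 by edgeR). The VEGF receptor genes, named here after their values were seen, were low. Kdr had 0.349 to 2.44 CPM and Flt1 0.224 to 0.969 CPM over the 12 libraries, and the coreceptor Nrp1 had 14.3 to 29 CPM.

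Few of the wider genes passed the test in the steps after T1. Of 72 genes tested at T2 vs. T1, 0 were lower and 0 higher by edgeR, 9 had an unadjusted p under 0.05, and DESeq2 called 0 lower and 1 higher. The count of higher genes was 1 with the replicate block, which pairs libraries of the same number, and also without T1 replicate 3 or T2 replicate 2. At T3 vs. T2, 2 of 71 were lower and 0 higher. These were Pfkfb3, a regulator of glycolytic flux, with 104 ± 6.93 CPM at T2 and 54.3 ± 11.7 CPM at T3 (-0.94 ± 0.14, adjusted p = 0.034 by edgeR), and Wsb1, a HIF target that codes for a ubiquitin ligase subunit (-0.65 ± 0.11, adjusted p = 0.046 by edgeR). Both calls were lost without T2 replicate 1, 2, 3 or 4, when 0 were lower, while 4 were lower and 5 higher without T3 replicate 1, and 1 was lower without T3 replicate 4.

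Genes of the integrated stress response are given beside Ddit4. Of those tested, 2 of 7 were lower and 2 higher at T1 vs. T0, 0 of 8 were lower and 4 higher at T2, and 0 and 2 at T3. The background was 16.8% lower and 15.1% higher at T1, 21.8% and 21.4% at T2, and 1.41% and 3.31% at T3. At T2 vs. T1, 0 were lower and 3 higher, beside a background of 0.0565% lower and 0.573% higher. At T3 vs. T2 none of 8 was called, beside a background of 0.691% and 0.5%. The counts against T0 include T0 replicate 3. There these genes summed to 414 CPM beside 240 CPM in both other T0 libraries, mostly through Atf4 and Asns. Ddit4, at 210 ± 124, 224 ± 67.9, 159 ± 27.2 and 147 ± 11.5 CPM from T0 to T3, passed the threshold at none of the times tested.

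Compared per length on the authors' FPKM values, Vegfa moved from place 2 among the members at T0 to place 5 later. At T0 the means were 90.8 FPKM for Ddit4, 82.2 for Vegfa, 51 for Hif1a, 34.3 for P4ha1, 25.5 for Egln1, 18.6 for Bnip3, 6.03 for Ndrg1, 3.73 for Car9, 0.722 for Egln3 and 0.108 for Adm. The library ranges of Ddit4 (32.3 to 121 FPKM), Vegfa (22.9 to 118 FPKM) and Hif1a (47.3 to 57.7 FPKM) overlap, so their order is not settled, and Hif1a stood clear of P4ha1 (31.2 to 37.1 FPKM). At T1 Vegfa was at 17 FPKM (6.13 to 34.8), behind Ddit4 at 97.8, Hif1a at 65.2, Egln1 at 19.4 and P4ha1 at 17.4 FPKM, and its range overlaps those of Egln1 and P4ha1. It stayed in that place at T2 with 12.6 FPKM (11.9 to 14.1) and at T3 with 12.7 FPKM (9.04 to 16.3). Bnip3 differed between the 2 tables, since the log2 ratio of T1 over T0 was -0.66 from CPM and -1.27 from FPKM.

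Across the 12 libraries, the genes whose log2 CPM was most like that of Vegfa were Fbp1 (Pearson r 0.94), Nid2 (0.93), Pvr (0.92), Wwox (0.92), Plod2 (0.91), Bnip3 (0.91), Hes5 (0.91), Ero1l (0.90), P4ha1 (0.90) and Rasl11a (0.89), of 11528 genes ranked. Bnip3 and P4ha1 are members, and Plod2 and Ero1l belong to the wider pathway list. Of the 11528 genes ranked, 6 were members and 64 were genes of the wider list. The ranking uses the T0 and T1 values of Vegfa that chose the set, so these overlaps are a description. Hes5, a Notch target of neural progenitors, had 60.2, 59 and 27.1 CPM at T0 and 11.5, 12.6 and 19.5 CPM at T1, so it too was highest in T0 replicates 1 and 2.

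Egln1 ranked 21 (r 0.87), Ndrg1 63 (r 0.83) and Ddit4 2130 (r 0.50), while Hif1a had r -0.63. These values share the same libraries and rest largely on T0 replicates 1 and 2. Without T0 replicate 3, 2 of the 10 genes (P4ha1 and Fbp1) remained among the 10 most like Vegfa, and by Spearman's rho 1 did (P4ha1). P4ha1 (rho 0.92) was the 1 gene named under each of these measures.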

How the data were processed

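Total RNA was extracted with Trizol, libraries were made with the TruSeq RNA kit v2 and sequenced on an Illumina HiScanSQ. The authors aligned the reads to mm9 with TopHat (2.0.6) and deposited, per library, counts of reads per gene that were not normalized, and the processing notes of the submitters also name HTSeq (0.6.0). The strand setting of the counting is not given in the sources used here. The authors also deposited FPKM values per gene and library, and the tool behind them is not given in the sources used here. Columns of that table were matched to samples by name, with 0 columns left over. The name of the column for T3 replicate 4 also holds a 2 that the labels do not explain, and its number 4 was used.

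The 5 entries that name no gene were left out. Each comparison was fitted with edgeR (4.0.16, R 4.3.3) on the libraries of its 2 groups over all genes that passed filterByExpr, with TMM scaling, the quasi-likelihood test and Benjamini-Hochberg correction, threshold 0.05. CPM values use TMM library sizes. Correlations used log2 CPM with a prior count of 2. The floor for lower bounds was 3 counts per library, and it covers counting error only.

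Between T1 and T2, same-numbered libraries deviated together (r = 0.199, 0.341 and 0.166). The highest r there, 0.37, was between T2 replicate 4 and T1 replicate 3, so a pairing by number is not settled. Between T0 and T1 or T2, r of same-numbered libraries lay between -0.152 and 0.121. The main fits used no pairing. The fit was tested on simulated counts. The members, the wider list, the marker lists and the tests were chosen with earlier results of these data known. Named genes are all members, up to 3 called genes per role group and comparison with the largest change among those whose log2 CPM averaged 1 or more, and the 10 genes most like Vegfa. Names outside this rule are those of genes given for T0 replicate 3, Gapdh, Kdr, Flt1, Nrp1 and the markers. Alternatives were RLE scaling, DESeq2 (1.42.0), no filter, at least 10 counts in every library, 1 fit of all 12 libraries, the replicate block, libraries 1 and 2 only, and leaving out each library.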

Additional observations from a re-analysis of the deposited data

Results flagged for a closer look

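Hif1a in the T2 libraries had its highest value, 459 CPM in replicate 4, far from the other three, which had 367 to 378 CPM. Chance alone marks about 1 in 20 such groups, and 9 members were looked at in the 4 T2 libraries. Without T2 replicate 4 the log2 fold change of Hif1a at T2 vs. T0 was 0.41 (adjusted p = 0.03 by edgeR), so the call did not rest on that library.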

How the results depend on the processing

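Over all alternatives, 356 refitted fold changes of members kept their side of the threshold, 21 passed it newly, 6 no longer passed it, and no called one changed sign. Members called at T2 vs. T0 (5) were 3 with the replicate block on 2 groups, which lost Egln1 (adjusted p = 0.053 by edgeR) and Hif1a (adjusted p = 0.066 by edgeR), 8 in libraries 1 and 2, and 5 to 8 when 1 library was left out. At T3 vs. T0 (1) they were 3 by DESeq2, 5 in 1 fit of all libraries, 4 with the replicate block in that fit, and 0 to 5 leaving out 1 library. At T3 vs. T2 they were 0 to 1. Of the wider list at T1 vs. T0, 46 were lower in libraries 1 and 2 and 12 to 34 leaving out 1 library, and 10 were higher by DESeq2, 11 in 1 fit, 10 with the replicate block, 15 in libraries 1 and 2 and 1 to 15 leaving out 1. At T2 vs. T0, 7 were higher with the replicate block on 2 groups. At T3 vs. T0, 21 were lower by DESeq2, 24 in 1 fit, 24 with the replicate block and 0 to 26 leaving out 1, and 6 were higher in 1 fit, 3 with the replicate block and 0 to 2 leaving out 1. At T2 vs. T1, 1 was higher by DESeq2, without the filter, with the replicate block and in libraries 1 and 2, and 0 to 1 leaving out 1. The block changed no other call there. At T3 vs. T2, 5 were lower by DESeq2 and without the filter, 1 in 1 fit, 0 with the replicate block and 0 to 4 leaving out 1, and 0 to 5 were higher leaving out 1. Member counts of 6 or more at T2 and of 3 or more at T3 include Car9, whose counts rest on T0 replicates 1 and 2 alone. The causes were not tested. No T3 vs. T0 fit of 2 groups with the block was made, since these share only number 1.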
